A study of Mus musculus with 203 samples.

Results

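The comparison described here was the knockdown of Kdm1a in RAW264.7 cells under IL4. RAW264.7 is a mouse macrophage line of BALB/c origin. The members were chosen by their labels: 4 RNA-seq libraries of cells carrying an shRNA against GFP (shGFP) and 4 of cells carrying an shRNA against Kdm1a (shKDM1A), all 8 treated with IL4 at 20 ng/ml for 6 h, out of 203 samples in the series. The same 2 cell pools without IL4 gave 4 control libraries each, so that 16 libraries entered the fit. Both pools had been infected with a lentiviral shRNA vector and selected with puromycin, and both therefore carried the vector and the selection marker. Only 1 hairpin against Kdm1a was used, and a change caused by another target of that hairpin cannot be told apart from one caused by the loss of Kdm1a. The comparison asked which transcripts depended on Kdm1a in IL4-treated macrophages, and it covered the 12905 of 25094 listed genes that reached a log2 value of 1 in at least 4 of the 16 libraries.

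KDM1A, also called LSD1, is a flavin-dependent histone demethylase that removes methyl groups from mono- and dimethylated lysines of histone H3. It works mostly within the CoREST complex, next to the deacetylases HDAC1 and HDAC2, where it is best known as a corepressor of genes that belong to other lineages. IL4 is a T helper 2 cytokine that signals through the IL4 receptor, the JAK kinases and the transcription factor STAT6, and it drives macrophages to the alternatively activated state marked by genes such as Mrc1.

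The deposited values were on a log2 scale on which low values had been drawn together, so a difference of 1 stands for a 2-fold change in well expressed genes and understates the change of weakly expressed ones. The libraries held between 17554721 and 27782568 counted tags. Among the 9 macrophage markers tested, Csf1r averaged 15.24 and Lyz2 averaged 16.37 with shGFP and IL4. The epithelial markers Epcam, Krt8, Krt18 and Cdh1 were listed at 0 in every library, and none of the 5 B cell or 6 fibroblast markers passed the filter. Some markers of other cell types passed, namely Lck (5.7, T cell), Zbtb46 (4.14) and Xcr1 (2.03, both dendritic cell). S100a8, Pecam1, Kdr, Itga2b and Pf4 passed too, averaging 1.24 to 2.75 with shGFP and IL4. The unlogged levels of 10 listed macrophage markers were summed. On the log2 scale the sum was 17.37 to 17.39 in the shGFP IL4 and 17.78 to 17.88 in the shKDM1A IL4 libraries. Lyz2, the most abundant of them, weighs most in this sum. Lyz2, Spi1, Csf1r, Cd68, Itgam and Cd14 rose while Adgre1 and Fcgr1 fell. Tyrobp was not called and Mertk did not pass the filter. The part of these marker changes in other results was not tested. The shKDM1A IL4 libraries were not alike. Over the 489 tested genes with transcripts over 8 kb, the median deviation from the shGFP IL4 mean was -0.22 in library 1 and -0.17 in library 3, but -0.03 in library 2 and -0.04 in library 4, while the 4 shGFP IL4 libraries lay between -0.02 and 0.02. In the libraries without IL4 it ran from -0.12 in shGFP control library 4 to -0.01, with -0.11 in shKDM1A control library 1. Libraries 1 and 3 of the shKDM1A IL4 group were thus lowest in long transcripts, whose levels were read with and without them wherever that mattered.

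Kdm1a itself (chr4:136106448-136158638 in mm9, minus strand) was read first. Its log2 values were 11.12, 11.10, 11.12 and 11.07 in the shGFP IL4 libraries and 10.32, 10.33, 10.34 and 10.28 in the shKDM1A IL4 libraries. The groups did not overlap and were narrow. The knockdown changed the Kdm1a transcript by -0.79 on the log2 scale (SE 0.028, limma adjusted p = 2.2e-12), which left 0.58 of the shGFP level. Without IL4 the difference was -0.88, and the knockdown did not differ detectably between both states (difference 0.10, adjusted p = 0.16).

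Across the transcriptome the knockdown changed many genes by small amounts. With IL4, 5255 of 12905 genes differed between shKDM1A and shGFP at an adjusted p under 0.05, which was 40.7% of all tested genes; 2694 were higher (20.9%) and 2561 were lower (19.8%). The 4 libraries of one group did not overlap the 4 of the other in 4702 genes (36.4%). The median size of the change among the called genes was 0.157 on the log2 scale against a median SE of 0.0322. Larger changes were mostly upward: 242 genes rose by over 0.5 (1.88%) and 77 fell by over 0.5 (0.597%), 42 rose and 14 fell by over 1, and 2 rose and 2 fell by over 2. Weakly expressed genes were called less often, with 21.6% called among the genes of the lowest of 4 equal level classes and 54.5% in the highest. Call direction followed transcript length: 43.1% of genes over 8 kb were lower and 9.41% higher, against 5.55% and 16.9% of genes under 1 kb. The median log2 fold change was -0.11 over 8 kb and 0.01 under 1 kb, and its part in single calls was examined by leaving out libraries 1 and 3 and by removing the length trend. The study describes its experiments in general as biologically replicated, but the labels do not say whether the 4 libraries of a group came from separate cultures, so the p-values measure only the spread between these libraries, which may be technical.

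**Figure D1:**
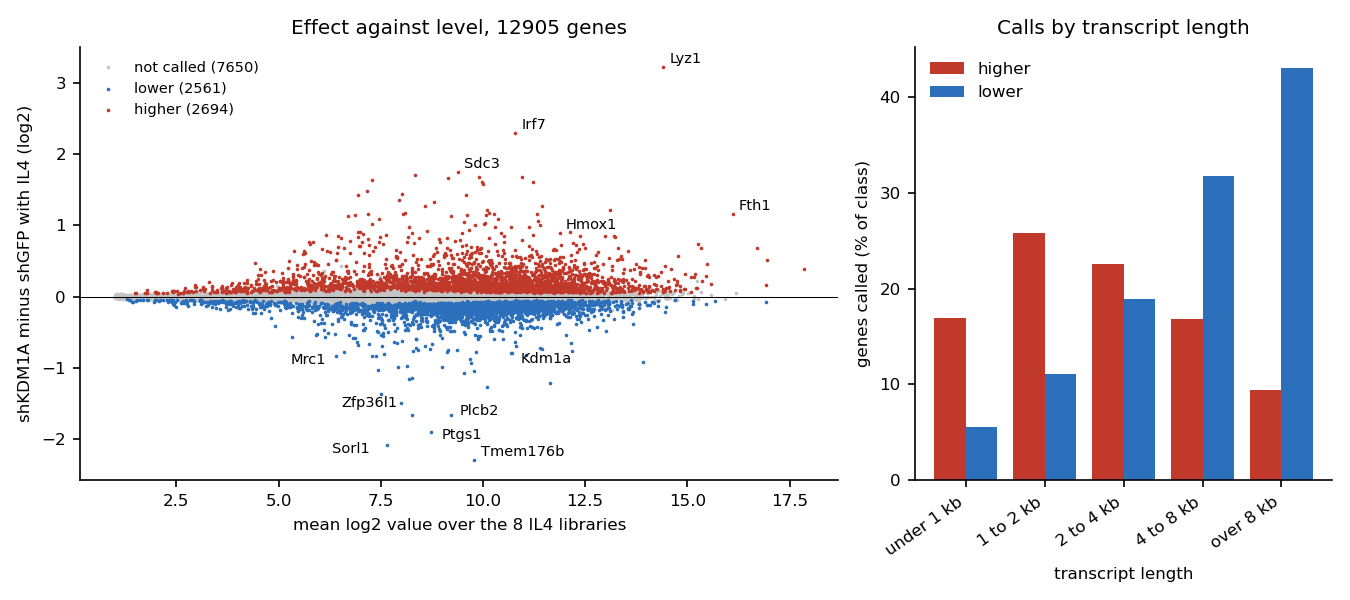
Left, log2 difference between shKDM1A and shGFP with IL4 against the mean log2 value for 12905 genes, red where called higher, blue where called lower and grey where not called. Right, percentage of each transcript length class called higher or lower; the share called lower climbs from 5.55% under 1 kb to 43.1% over 8 kb.

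Of the lists examined, the type I interferon response had the largest share of members called in one direction. These genes are induced by interferon through STAT and IRF transcription factors and act against viruses. Of 42 listed members all 42 were tested and 41 rose, where 20.9% of all tested genes did. Iigp1 was not called (0.02, at a level of only 2.35). The median change was 0.84, against 0.00 over all tested genes, and the groups did not overlap for 41 members, where 36.4% of all genes did not. The count was 41 under every scaling tried, under the replicate block and without libraries 1 and 3.

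Irf7, the master transcription factor of interferon induction, showed the largest change of the list. Its log2 values were 9.68, 9.66, 9.58 and 9.65 with shGFP and 11.97, 11.93, 11.98 and 11.90 with shKDM1A. Every knockdown library was far above every control library, and the difference was 2.30 (SE 0.025, adjusted p = 4.5e-19), or 4.93-fold. Ifi44, an interferon-induced antiviral protein, was at 10.17, 10.06, 10.02 and 10.22 with shGFP and at 11.81, 11.78, 11.78 and 11.84 with shKDM1A, again without overlap (1.68, adjusted p = 2.8e-15). Both genes thus separated completely by shRNA. Usp18, a protease that removes ISG15 from proteins and dampens interferon receptor signalling, was at 9.16, 9.17, 9.15 and 9.18 with shGFP and 10.84, 10.70, 10.82 and 10.75 with shKDM1A (1.62, adjusted p = 1.8e-15). Rtp4, a chaperone of G protein-coupled receptors, went from 8.88 ± 0.078 to 10.30 ± 0.020 (mean ± SD, n = 4; 1.42, adjusted p = 4.6e-14).

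The rise took in sensors, transcription factors and effectors. The RNA sensors Ddx58, which encodes RIG-I, Ifih1, which encodes MDA5, and Dhx58 rose by 1.17, 1.13 and 1.05. The transcription factor subunits Stat2 and Irf9 rose by 0.60 and 0.56. Oligoadenylate synthetases, which make the activator of RNase L, rose throughout, from 0.73 for Oas1g to 1.36 for Oasl2. Isg15, a ubiquitin-like modifier, was at 7.45, 7.50, 7.52 and 7.55 with shGFP and 8.72, 8.65, 8.80 and 8.55 with shKDM1A, without overlap (1.18). Bst2, which tethers budding virions, rose by 1.07, and Ifitm3, which blocks viral entry, by 1.22. The smallest called changes were those of weakly expressed genes, such as 0.08 for Gbp2 and 0.11 for Mx1. Reads of the near-identical pairs Oas1a and Oas1g and Ifit3 and Ifit3b could have been split between copies, so these 4 values are uncertain singly.

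The list was also higher without IL4, where the median difference over the 42 genes was 0.71. The effect differed between both states for 11 of the 42 at an adjusted p under 0.05, where 6.13% of all genes did, and for all 11 it was more positive with IL4. For Usp18 the knockdown difference was 1.29 without and 1.62 with IL4 (difference 0.33, adjusted p = 0.00039). For Irf7 it was 2.23 and 2.30 (difference 0.07, adjusted p = 0.22).

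**Figure D2:**
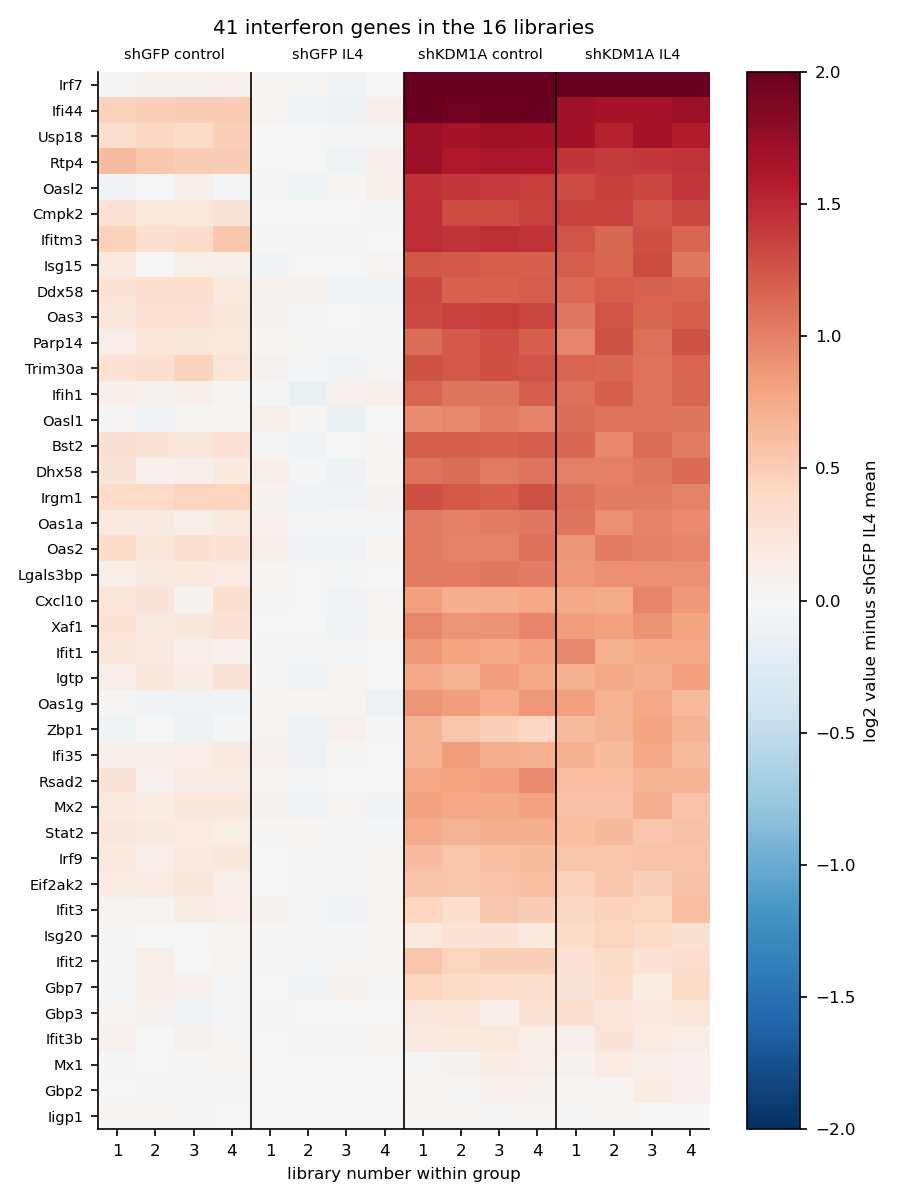
Log2 value of 41 of the interferon genes in each of the 16 libraries, minus the mean of the 4 shGFP IL4 libraries, ordered by the difference with IL4; red is higher and blue lower, on a scale that saturates at -2 and 2. Both shKDM1A groups are red over nearly all rows, deepest for Irf7, and the last row, Iigp1, stays near 0.

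The promoters of these genes were searched for the element through which interferon is known to act. The interferon-stimulated response element (ISRE) was searched as its core GAAANNGAA on both strands, from 250 bases before to 50 after the listed transcript start in mm9; single matches can overlap. It was found at 29 of 42 interferon promoters (69.0%), against 985 of 12886 promoters of tested genes that had a window (7.64%). Among genes that rose by over 0.5 it was found in 45 of 240 (18.8%), and in 22 of 207 (10.6%) once the list members were left out. Genes that fell by over 0.5 held it in 9 of 77 (11.7%). The 5 promoters below were chosen because they hold the core at several places or lie at genes with large changes; each shows the 150 bases before the start in the direction of transcription, with the ISRE cores in capitals. They are Isg15 (chr4:155574928-155575077, minus strand), Usp18 (chr6:121195774-121195923, plus strand), Ifit1 (chr19:34715229-34715378, plus strand), Rtp4 (chr16:23609855-23610004, plus strand) and Zbp1 (chr2:173044424-173044573, minus strand).
Isg15: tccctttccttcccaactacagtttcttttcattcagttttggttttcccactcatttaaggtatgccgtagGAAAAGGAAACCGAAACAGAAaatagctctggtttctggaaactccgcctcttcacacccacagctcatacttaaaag
Usp18: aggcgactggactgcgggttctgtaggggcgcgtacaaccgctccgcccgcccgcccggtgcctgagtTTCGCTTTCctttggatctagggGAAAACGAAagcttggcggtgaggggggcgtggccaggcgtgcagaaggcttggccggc
Ifit1: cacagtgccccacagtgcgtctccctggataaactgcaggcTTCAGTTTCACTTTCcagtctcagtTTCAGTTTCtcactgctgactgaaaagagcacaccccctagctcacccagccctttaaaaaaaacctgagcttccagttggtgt
Rtp4: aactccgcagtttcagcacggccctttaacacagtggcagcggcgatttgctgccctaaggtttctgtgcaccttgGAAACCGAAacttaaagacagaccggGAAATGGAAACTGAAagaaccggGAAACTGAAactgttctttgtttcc
Zbp1: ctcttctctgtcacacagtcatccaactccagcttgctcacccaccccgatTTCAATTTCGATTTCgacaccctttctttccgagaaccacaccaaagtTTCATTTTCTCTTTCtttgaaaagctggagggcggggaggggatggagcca
The Isg15 window holds 3 overlapping cores, Usp18 holds 2, Ifit1 holds 3, and Rtp4 and Zbp1 hold 4 each. Some cores also overlap in Ifit1, Rtp4 and Zbp1. Isg15 rose by 1.18, Ifit1 by 0.81 and Zbp1, a sensor of Z-form nucleic acid, by 0.70. The gamma-activated site TTCNNNGAA and the AP-1 site TGANTCA, searched the same way, were each found in 11 of the 42 interferon promoters (26.2%), against 6.84% and 4.71% of all 12886; bases of the former can be shared with an ISRE core. A match describes the letters only, and Irf7, which rose most, had none in its window.

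Genes of MHC class I presentation rose with the interferon genes. They encode the chains that show peptides to CD8 T cells, and the proteasome, transporter and chaperones that supply them. Of 22 listed genes 20 rose and 1, H2-M3, fell (-0.35), with a median of 0.30, where 20.9% of all tested genes rose and 19.8% fell; 18 rose under quantile normalization. H2-T23, the non-classical class I gene Qa-1, changed most, from 9.14, 9.21, 9.20 and 9.29 with shGFP to 10.96, 10.69, 10.81 and 10.71 with shKDM1A. The groups were far apart, and the difference was 1.59 (SE 0.047, adjusted p = 2e-13). Of the classical heavy chains, H2-K1 went from 11.55 ± 0.015 to 12.27 ± 0.066 (0.72) and H2-D1 from 12.96 ± 0.032 to 13.65 ± 0.079 (0.69). B2m, the light chain, rose by 0.64, and Tapbp, the tapasin that loads peptides, by 0.67. The peptide transporter Tap1 rose by 0.59 and the immunoproteasome subunit Psmb8 by 0.59. H2 genes resemble each other closely and some overlap, so single values may include reads of a neighbour. The H2-T23 promoter (chr17:36169647-36169796, minus strand) holds 1 ISRE core, shown in capitals in the 150 bases before its start.
H2-T23: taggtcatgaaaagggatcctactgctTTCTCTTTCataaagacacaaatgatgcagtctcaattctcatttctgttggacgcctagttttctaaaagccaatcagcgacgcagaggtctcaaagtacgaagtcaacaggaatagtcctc
This core was found at 6 of the 22 class I promoters (27.3%).

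MHC class II genes were mostly below the filter or not called. Of 13 listed genes 7 were tested and 42.9% of these were called, near the 40.7% of all tested genes, and with the length trend removed or an intensity trend in limma's variance estimate 3 rose and 3 fell. The 3 that rose were the invariant chain protease Ctss (0.45), the peptide exchange factor subunit H2-DMa (0.41) and the thiol reductase Ifi30 (0.16). Cd74, the invariant chain, was expressed at 12.52 and not called (-0.07), and H2-Ab1 was near the detection limit (1.83).

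Genes known to be driven by IL4 and STAT6 moved in both directions, with more falling than rising. Of 38 listed genes 25 were tested, 13 fell and 5 rose, and 7 were not called. The share that rose (5 of 25) was near the 20.9% of all tested genes and the share that fell was above their 19.8%, and the median was -0.04, against 0.00 over all genes. The other 13, among them Chil3, Retnla, Ccl17, Ccl22 and Ccl24, did not pass the filter in these cells. The effect differed between both IL4 states for 10 of the 25, where it did for 6.13% of all tested genes, and it was more negative with IL4 for all but 2 of them.

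Ptgs1 (chr2:36085946-36107791, plus strand), which encodes the constitutive cyclooxygenase COX-1, fell most. Its log2 values were 9.64, 9.76, 9.64 and 9.67 with shGFP and IL4 and 7.79, 7.79, 7.79 and 7.72 with shKDM1A and IL4. The control libraries were all higher, and the knockdown left 0.267 of the transcript (-1.91, SE 0.038, adjusted p = 2.1e-15). The 4 group means were 7.90 for shGFP control, 9.68 for shGFP IL4, 6.69 for shKDM1A control and 7.77 for shKDM1A IL4. The knockdown effect was -1.22 without IL4 and differed from that with IL4 by -0.69 (SE 0.053, adjusted p = 1.2e-06). As the most strongly reduced IL4 target, its promoter is shown (chr2:36085796-36085945, plus strand, the 150 bases before the start); the capitals mark GAGGAAGT, a recognition sequence of the macrophage factor PU.1, which were found on either strand in 419 of 12886 promoters (3.25%).
Ptgs1: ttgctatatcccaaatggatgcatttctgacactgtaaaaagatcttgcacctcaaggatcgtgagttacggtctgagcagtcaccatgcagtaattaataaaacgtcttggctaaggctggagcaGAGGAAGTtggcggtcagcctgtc
The PU.1 letters lie just before the start of Ptgs1.

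Mrc1 (chr2:14151041-14253650, plus strand), the mannose receptor CD206 and a classical marker of alternative activation, behaved differently in the 2 states. With IL4 its values were 6.82, 6.91, 6.84 and 6.76 with shGFP and 5.95, 5.94, 6.07 and 6.03 with shKDM1A. Without IL4 they were 5.55, 5.51, 5.51 and 5.49 and 5.49, 5.50, 5.53 and 5.47. The groups were apart with IL4 and overlapped without it, and the difference was -0.83 (SE 0.032, adjusted p = 5.3e-12) with IL4 and -0.02 (adjusted p = 0.74) without. The test of the difference between both gave -0.82 (SE 0.046, adjusted p = 3.6e-08).

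Flt1, the VEGF receptor 1, was read at 10.08, 10.09, 10.09 and 10.05 with shGFP and at 9.45, 9.62, 9.48 and 9.61 with shKDM1A. All 4 knockdown libraries were lower, and the difference was -0.54 with and -0.54 without IL4 (difference -0.00, adjusted p = 1). Itgax, the CD11c integrin chain, fell from 7.23 ± 0.054 to 6.59 ± 0.039 (-0.64, adjusted p = 3e-10), and the transcription factors Irf4 (-0.31) and Pparg (-0.30) fell. Klf4, a STAT6 partner, and Pik3ap1, an adaptor of PI3 kinase, both rose by 0.32, and the beta-glucan receptor Clec7a rose by 0.25. A STAT6 site, searched as TTCNNNNGAA, was found in 4 of the 25 promoters (16.0%), against 731 of 12886 (5.67%). These were Clec7a, Il1rn, Itgax and Pdcd1lg2, while Ptgs1, Mrc1 and Flt1 had none. Other letters were also more frequent than over all promoters. The gamma-activated site was at 16.0% against 6.84%, the PU.1 site at 12.0% against 3.25% and the E-box CACGTG at 24.0% against 10.2%. The ISRE core (8.00%) and AP-1 site (4.00%) were near their shares of 7.64% and 4.71%.

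**Figure D3:**
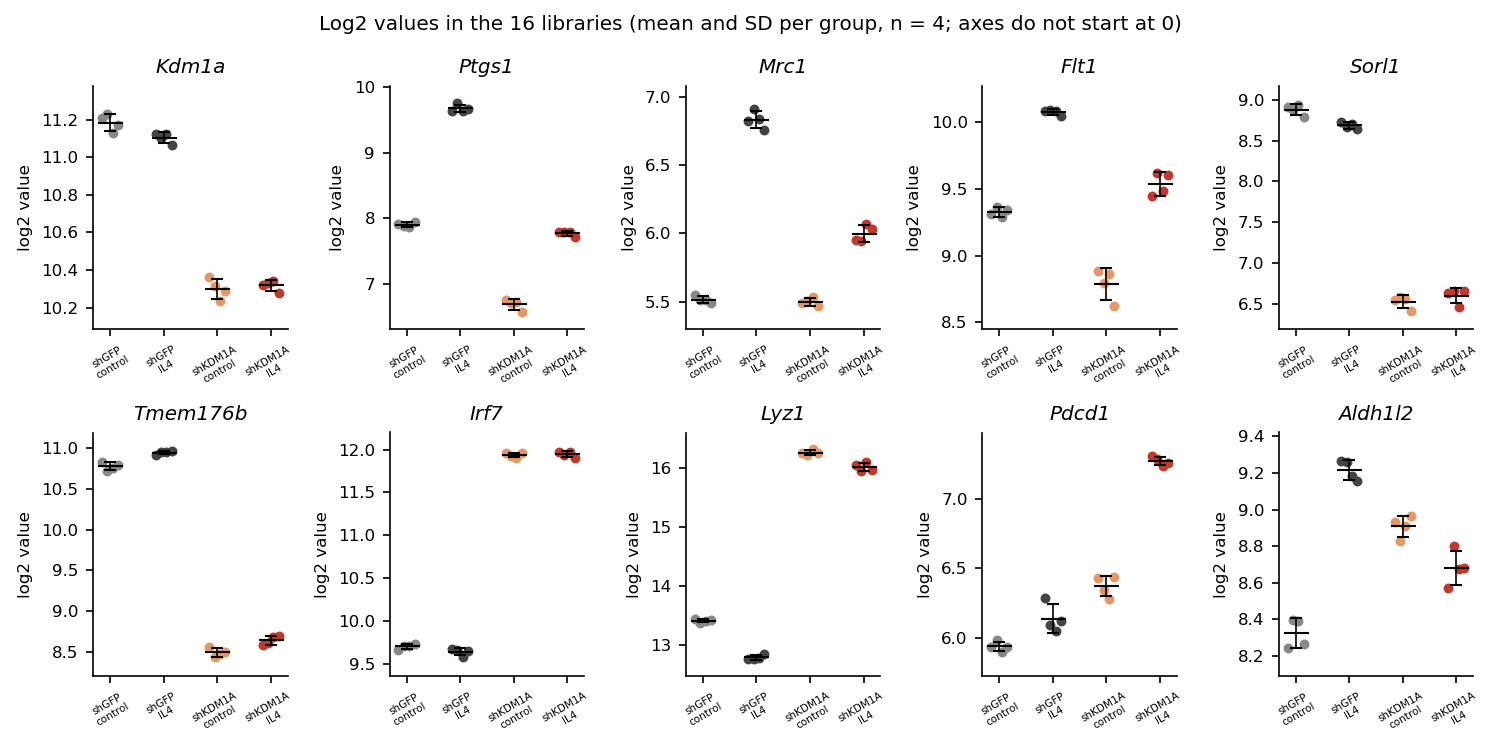
Log2 values of 10 genes in the 16 libraries by group, with the mean and SD of each group of 4; axes do not start at 0. Mrc1 is high with IL4 in shGFP cells and lower with IL4 in shKDM1A cells, while the shRNA groups lie together without IL4; Irf7 and Lyz1 are high in both shKDM1A groups.

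The receptors and kinases that carry the IL4 signal changed by small amounts. Of 25 listed genes 23 were tested, 8 fell and 4 rose (52.2% called, where 40.7% of all tested genes were), with a median of -0.01; under quantile normalization 2 rose and with the length trend removed 7 did. Il2rg, the common gamma chain, rose from 9.50 ± 0.053 to 9.96 ± 0.053 (0.46, adjusted p = 2.7e-09), whereas the chains Il13ra1 (-0.32) and Il4ra (-0.15) fell. Stat6 itself was not called (-0.01 at a level of 12.13, adjusted p = 0.79). The feedback inhibitors Cish (-0.18) and Socs1 (-0.17) fell, and so did the phosphatase Inpp5d, also known as SHIP1 (-0.24).

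Genes of the prostanoid and leukotriene list fell more often than they rose. It holds enzymes that make these lipid mediators from arachidonic acid, but also receptors for them and the degrading enzyme Hpgd. Of 28 listed genes 20 were tested, 11 fell and 3 rose, where 19.8% and 20.9% of all tested genes did, with a median of -0.08. Besides Ptgs1, Hpgds, the haematopoietic prostaglandin D synthase, was at 10.58, 10.58, 10.56 and 10.55 with shGFP and 9.93, 10.03, 9.92 and 9.98 with shKDM1A, and fell by 0.60 (adjusted p = 4.3e-11). Alox5, the 5-lipoxygenase that begins leukotriene synthesis, fell by 0.38 and its partner Alox5ap rose by 0.32. Cbr1 (-0.34), a carbonyl reductase, and Ptges3 (-0.33), a prostaglandin E synthase, fell too. Ptgs2, the inducible COX-2, was not called (-0.06).

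Ptgs1 aside, the largest losses lay outside these pathways. Tmem176b (chr6:48783811-48790987, minus strand), a cation channel of antigen-presenting cells, was the most reduced gene of all, at 10.92, 10.95, 10.95 and 10.96 with shGFP and 8.58, 8.61, 8.69 and 8.70 with shKDM1A. The knockdown libraries held 0.203 of the transcript (-2.30, SE 0.032, adjusted p = 2.1e-17). Its neighbour and paralogue Tmem176a fell by 1.36. Sorl1, a sorting receptor of the endosome, was at 8.73, 8.66, 8.71 and 8.64 with shGFP and 6.63, 6.66, 6.47 and 6.66 with shKDM1A (-2.08, adjusted p = 5.6e-15). Its transcript is over 8 kb long, but libraries 2 and 4 were nearly as far from the control as library 1. Zfp36l1, a protein that promotes decay of AU-rich mRNAs, fell by 1.67 and Plcb2, a phospholipase C downstream of G proteins, fell by 1.66. Spink5, a serine protease inhibitor, the serotonin receptor Htr1b and the carbonic anhydrase Car2 differed by -1.49, -1.27 and -1.21. Arhgef40, a guanine nucleotide exchange factor, S1pr1, a receptor of sphingosine-1-phosphate, and Plxnc1, a semaphorin receptor, differed by -1.15, -1.14 and -1.07. For these 11 genes and Ptgs1, the 12 chosen as the most reduced ones with groups that did not overlap, the differences without IL4 ran from -0.87 for Arhgef40 to -2.35 for Sorl1.

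Lyz1, a lysozyme gene, rose most. Its values were 12.77, 12.77, 12.78 and 12.84 with shGFP and 16.05, 15.95, 16.11 and 15.97 with shKDM1A, a 9.39-fold difference (3.23, SE 0.033, adjusted p = 3.9e-19). Lyz1 and its neighbour Lyz2 are nearly identical, so the split of reads between them is uncertain, but Lyz2 also rose, from 16.37 ± 0.016 to 17.05 ± 0.075 (0.68). Sdc3, the heparan sulphate proteoglycan syndecan-3, was at 8.54, 8.56, 8.46 and 8.49 with shGFP and 10.21, 10.25, 10.30 and 10.31 with shKDM1A (1.75, adjusted p = 4.1e-15). Pkd1l2, a polycystin family gene, rose by 1.70 and Uchl1, a neuronal deubiquitinase, by 1.49. Besides Irf7, H2-T23, Ifi44 and Usp18, the 12 most raised genes also held the class I gene H2-T24 (1.69) and the interferon-induced genes Ifi44l (1.67), Apol9a (1.63) and Ifi27l2a (1.61). H2-T23 and H2-T24 overlap another annotated transcript, as do Uchl1, Htr1b and Arhgef40, and the counting did not use strand. In the related MS4A family of membrane proteins 4 of the 5 members tested rose, where 20.9% of all tested genes did, and 3 rose with the length trend removed or when any one of shGFP IL4 libraries 1 and 2 or shKDM1A IL4 libraries 1 and 2 was left out; the rise was led by Ms4a6b (0.38) and Ms4a6c (0.24).

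The 10 called genes with changes over 0.5 that were most abundant per kilobase of transcript all rose, where 75.9% of all called genes with changes over 0.5 did; ranking per kilobase favours short transcripts. They were Lyz2, Lyz1, the iron store subunit Fth1 (1.16), the glycolytic enzyme Pkm (0.51), the secreted phosphoprotein Spp1 (0.74), S100a6 (0.58), the lysosomal protease Ctsd (0.57), B2m, Ifitm3 and the lipoprotein lipase Lpl (0.68). The Spp1 values were 14.95, 14.87, 14.86 and 14.94 with shGFP and 15.66, 15.61, 15.65 and 15.64 with shKDM1A, and the groups were clearly apart.

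Classical inflammatory genes stayed close to the background. Of 34 listed genes 27 were tested, 6 rose and 3 fell, so that 33.3% were called, where 40.7% of all genes were. The lower count was 5 without shGFP IL4 library 4 or shKDM1A IL4 library 3 and 6 with the length trend removed. Tnf, Nlrp3 and Ptgs2 were not called (-0.06, -0.03 and -0.06), and Il1b, Il6, Il12b and Nos2 did not pass the filter. Tnfaip2, a TNF-induced gene of membrane protrusions, fell from 10.77 ± 0.049 to 10.18 ± 0.024 (-0.59, adjusted p = 4.1e-10), and Rel, the NF-kappaB subunit c-Rel, fell by 0.42. Icam1, an adhesion molecule, rose by 0.21, and Traf1 by 0.17, a call that was lost without libraries 1 and 3 (adjusted p = 0.056). Of 17 tested chemokine and receptor genes 5 rose and 2 fell, 41.2% in all, near the background. Cxcl10, an interferon-induced chemokine, was at 7.09, 7.06, 7.01 and 7.12 with shGFP and 7.83, 7.82, 8.05 and 7.93 with shKDM1A, all 4 of the latter being higher (0.84), and Ccl9 rose by 0.48. Cxcl14 fell by 0.70 and the monocyte attractant Ccl2 fell by 0.40.

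Among surface receptors and pattern recognition receptors, 13 of 33 tested genes rose and 13 fell, where 20.9% and 19.8% of all tested genes did. Within these 33, the largest falls after Mrc1 and Itgax were those of the C-type lectin Clec4a3 (-0.49) and the scavenger receptor Stab1 (-0.30). The largest rises within them were those of Clec4d (0.43), the lipopolysaccharide coreceptor Cd14 (0.40) and the lipoprotein receptor Scarb1 (0.36). Msr1, a scavenger receptor for modified lipoproteins, rose by 0.31, and the integrin chains Itgam and Itgb2 by 0.25 and 0.32. The macrophage marker Adgre1, which encodes F4/80 and is not on this list, fell by 0.44.

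Transcription factors of macrophages also split, with 16 of 40 tested genes higher and 14 lower, where 20.9% of all tested genes rose and 19.8% fell. Fos, a subunit of AP-1, was at 10.17, 10.12, 10.08 and 10.13 with shGFP and 10.92, 10.87, 10.92 and 10.88 with shKDM1A, without overlap (0.77, adjusted p = 1.4e-12). Cebpa, a factor of myeloid commitment, rose from 10.26 ± 0.027 to 10.79 ± 0.021 (0.53). Irf8 and Spi1, which encodes PU.1, rose by 0.33 and 0.25. Tfec (-0.55) and Bhlhe41 (-0.48), which are basic helix-loop-helix factors, fell, as did Id1 (-0.49), an inhibitor of such factors. Osteoclast genes, which this line can express, rose for 9 of 16 tested members and fell for 4. Ctsk, the bone-degrading protease, and Atp6v0d2, a proton pump subunit, both rose by 0.46, and Nfatc1, the factor that commands osteoclast formation, rose by 0.25, while Car2 fell.

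The known partners of KDM1A changed little. Of 18 tested genes of the CoREST complex and its binding factors, 8 fell, Kdm1a included, and 5 rose, where 20.9% of all tested genes rose and 19.8% fell. Outside Kdm1a the changes were small, such as -0.23 for the scaffold Mier1. The deacetylases went apart, Hdac2 lower (-0.12) and Hdac1 higher (0.18), and the scaffold Rcor1 fell by 0.11. The second demethylase of the family, Kdm1b, was not called (-0.06). Of 8 genes of the NCOR corepressor complex 3 fell and 1, Coro2a, rose (0.35), but 1 fell under median centring or when any one of shGFP IL4 libraries 1, 2 and 4 or shKDM1A IL4 libraries 1 and 3 was left out. Ncor1 and Tbl1xr1, among those that fell, have transcripts over 8 kb. Ncor1 was at 11.91, 11.99, 11.95 and 11.94 with shGFP and 11.58, 11.82, 11.62 and 11.84 with shKDM1A, lowest in libraries 1 and 3 (-0.24); without these it was -0.12 and no longer called, and the call of Tbl1xr1 (-0.06) was lost as well, its difference being 0.00 with the length trend removed. Gps2 and Hdac3 were not called (-0.04 and -0.02).

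Counts of called histone methylation genes also changed when shKDM1A IL4 libraries 1 and 3 were left out, a fit with fewer libraries. Over all tested genes 1855 were called lower in that fit, against 2561 in the main fit. Of 16 genes that write or erase H3K4 methylation 11 fell and 1 rose, where 19.8% and 20.9% of all tested genes did, but without libraries 1 and 3 only 6 fell, and with the length trend removed 8 fell. Kmt2d, an H3K4 methyltransferase of enhancers with the longest transcript of the list, was at 10.32, 10.40, 10.54 and 10.35 with shGFP and 9.61, 10.17, 9.92 and 10.10 with shKDM1A. The groups did not overlap, the lowest value was that of library 1, and the difference of -0.45 (adjusted p = 0.00098) became -0.27 without libraries 1 and 3. Setd1b went from -0.33 to -0.21, and Kmt2c from -0.27 to -0.10, no longer called. Kdm5b, an H3K4 demethylase, rose from 5.94 ± 0.072 to 6.58 ± 0.041 (0.63, adjusted p = 8.3e-10), with all 4 knockdown libraries above all control libraries. Of 23 genes of H3K9 methylation 11 fell and 2 rose. Without libraries 1 and 3, 5 fell and 3 rose, but with the length trend removed 11 fell and 3 rose. Only 1 rose when any one of shGFP IL4 libraries 1, 3 and 4 or shKDM1A IL4 libraries 2 and 4 was left out. Cbx5, the heterochromatin protein HP1-alpha, fell by 0.32, and the difference was -0.21 without shKDM1A IL4 libraries 1 and 3.

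KDM1A is known to silence genes of other lineages, but those listed were mostly below the filter. Of 24 early haematopoietic and other lineage genes 8 passed the filter, 1 rose (Gfi1b, 0.12) and 1 fell (Tal1, -0.31). Of 20 neuronal and neuroendocrine genes 8 passed, and 5 rose, where 20.9% of all tested genes did, and none fell at an adjusted p under 0.05 by limma. Map2, a microtubule protein of dendrites, was at 4.16, 4.21, 4.21 and 4.19 with shGFP and 4.61, 4.64, 4.73 and 4.69 with shKDM1A, low in both but without overlap (0.48, adjusted p = 1.7e-10). Syn1, Syp and Vgf rose by 0.23, 0.18 and 0.13, and Syn1 overlaps other genes on the chromosome.

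**Figure D4:**
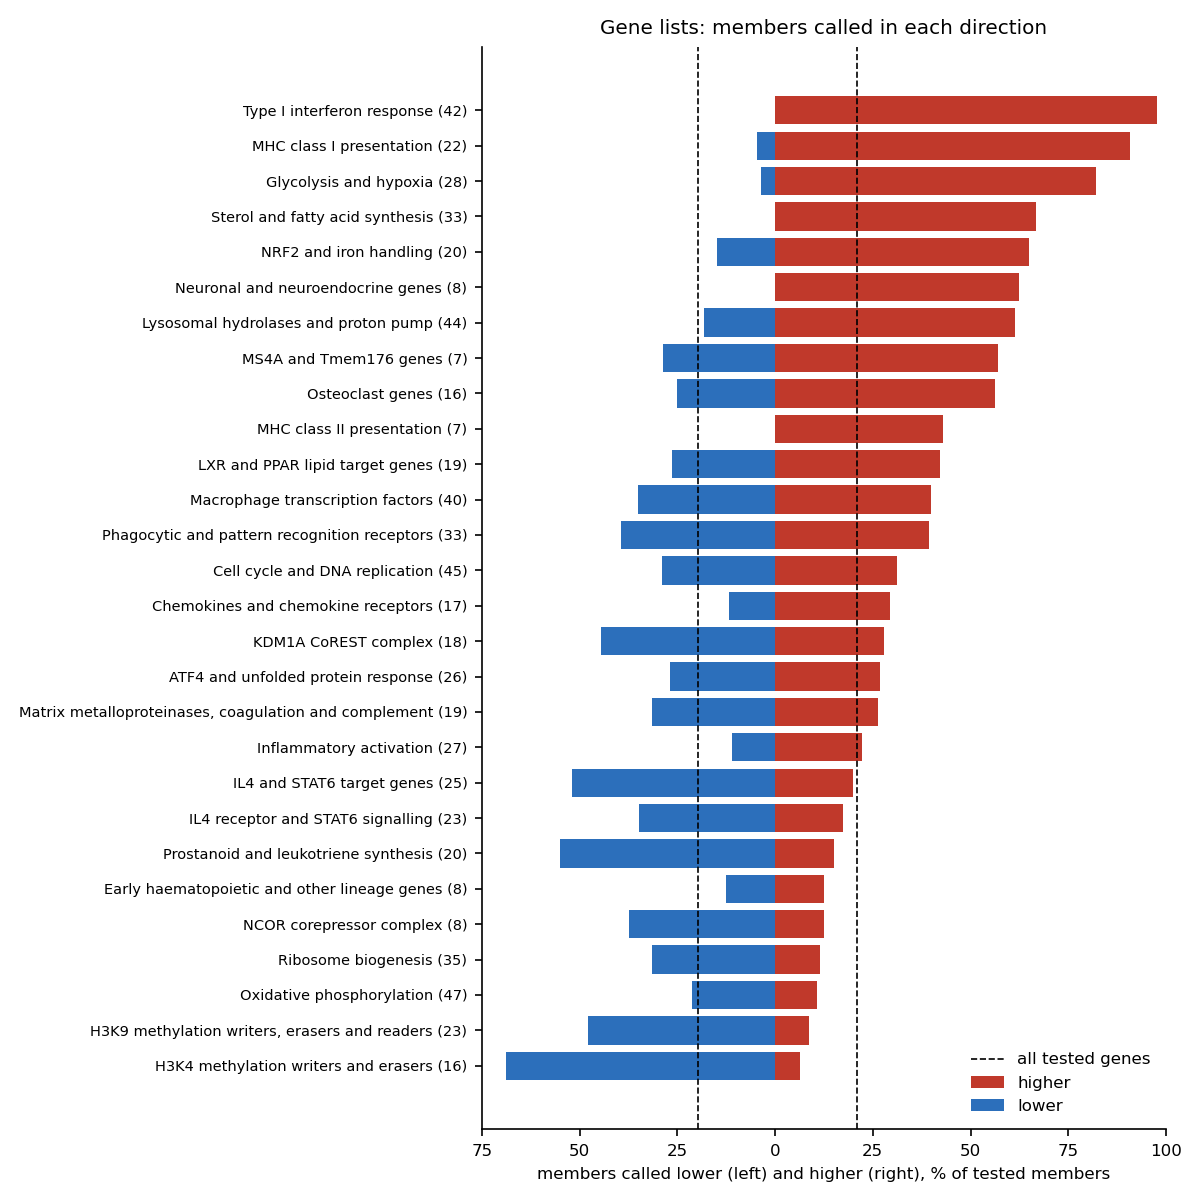
For each gene list, the percentage of tested members called lower (left, blue) and higher (right, red) with IL4, with the number tested in brackets; dashed lines mark the shares of all tested genes, 19.8% and 20.9%. Interferon, class I and glycolysis lists reach furthest to the right, and H3K4 methylation furthest to the left.

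Glycolysis and hypoxia genes rose nearly as a whole, with 23 of 28 tested members higher and 1, Hk1, lower (-0.07, a call lost without shGFP IL4 library 2, shKDM1A IL4 library 1 or shKDM1A IL4 library 3), where 20.9% of all tested genes rose and 19.8% fell; the median was 0.25, and 0.18 under quantile normalization. The raised enzymes included Pfkl (0.55), Aldoa (0.28), Pgk1 (0.34), Pgam1 (0.37), Eno1 (0.31), Pkm and Ldha (0.32). Slc16a3, the lactate exporter MCT4, rose from 11.96 ± 0.038 to 12.81 ± 0.036 (0.85, adjusted p = 2e-13). Bnip3, a hypoxia-induced receptor of mitophagy, was at 9.39, 9.51, 9.61 and 9.52 with shGFP and 10.50, 10.54, 10.57 and 10.48 with shKDM1A, and rose by 1.01. Hif1a itself was not called (-0.04). The effect differed between the states for 13 of the 28 genes, against 6.13% of all tested genes, and was more positive with IL4 for 11 of them. Of 47 genes of oxidative phosphorylation 5 rose and 10 fell (31.9% called, where 40.7% of all tested genes were), and without libraries 1 and 3, 3 rose and 18 fell.

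Lysosomal genes were raised more often than not, with 27 of 44 higher and 8 lower and a median of 0.13, where 20.9% of all tested genes rose and 19.8% fell. The cathepsin proteases led, with Ctsl going from 12.56 ± 0.032 to 13.41 ± 0.031 (0.86, adjusted p = 1.1e-13), Ctsd rising by 0.57 and Ctss by 0.45. Npc2, which carries cholesterol inside the lysosome, rose by 0.75, and its membrane partner Npc1 fell by 0.16. The E-box CACGTG was found in 17 of these 44 promoters (38.6%), against 1312 of 12886 (10.2%).

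Genes of lipid synthesis rose, while a list of nuclear receptors and their lipid targets was split. Of 33 tested genes of sterol and fatty acid synthesis 22 rose and none fell by limma at an adjusted p under 0.05, with a median of 0.12, where 20.9% of all tested genes rose and 19.8% fell. Scd1, the stearoyl-CoA desaturase, was at 10.83, 10.83, 10.76 and 10.77 with shGFP and 11.57, 11.75, 11.60 and 11.71 with shKDM1A (0.86, adjusted p = 5.7e-11), and Srebf1, which encodes the lipogenic factor SREBP1, rose by 0.31. The fatty acid synthase Fasn was not called (-0.05). Among 19 tested genes of the LXR and PPAR list, which holds the receptors as well as their targets, 8 rose and 5 fell. Pltp, the phospholipid transfer protein, rose from 10.90 ± 0.031 to 11.91 ± 0.055 (1.01), the lipoprotein lipase Lpl by 0.68 and the cholesterol exporter Abcg1 by 0.41. Those that fell included the receptors Ppard (-0.41), Pparg (-0.30) and Nr1h3 (-0.24), which encodes LXR-alpha. Pltp and the lysosomal gene Ctsa overlap on the chromosome.

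Iron and redox genes rose for 13 of 20 members and fell for 3, where 20.9% of all tested genes rose and 19.8% fell. Fth1, the ferritin heavy chain, was at 15.53, 15.54, 15.52 and 15.55 with shGFP and 16.75, 16.63, 16.75 and 16.63 with shKDM1A, 2.23-fold higher. Hmox1, the haem oxygenase, was at 11.44, 11.44, 11.43 and 11.42 with shGFP and 12.35, 12.31, 12.32 and 12.34 with shKDM1A (0.90, adjusted p = 2.8e-15). The groups of both genes were clearly apart. Tfrc, the transferrin receptor, rose by 0.84. The cystine carrier Slc7a11 fell by 0.75 and the ferritin light chain Ftl1 fell by 0.07.

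Cell cycle genes were split, 14 of 45 higher and 13 lower, where 20.9% of all tested genes rose and 19.8% fell. Without shKDM1A IL4 libraries 1 and 3, 13 rose and 8 fell. Cdkn1a, the cyclin-dependent kinase inhibitor p21, rose from 12.01 ± 0.026 to 12.43 ± 0.053 (0.42, adjusted p = 4.1e-09), and Ccnb2 rose by 0.34. Mki67, whose transcript is long, was at 12.40, 13.00, 12.74 and 12.93 in the knockdown libraries, lowest in libraries 1 and 3, and its change of -0.48 became -0.29 without them. Ribosome biogenesis had 4 of 35 genes higher and 11 lower, 42.9% called in all against 40.7% of all tested genes. The calls lay within -0.13 (Utp3) and 0.19 (Rrp9), and 6 were lower under median centring, 16 under quantile normalization and 7 when any one of shGFP IL4 libraries 1, 3 and 4 was left out. Among 19 tested matrix, coagulation and complement genes, Plaur, the urokinase receptor, rose by 0.32 and complement C3 fell by 0.59; 5 rose and 6 fell in all, and 3 rose when any one of shGFP IL4 libraries 3 and 4 or shKDM1A IL4 libraries 1, 2 and 4 was left out.

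The effect of the knockdown itself differed between IL4-treated and untreated cells for 791 of 12905 genes (6.13%), 459 with a more positive and 332 with a more negative effect under IL4, and 17 by more than 0.5. Without shKDM1A IL4 libraries 1 and 3 the count was 348. The 8 genes whose effect was most negative under IL4 relative to the untreated state were Aldh1l2, Pck2, Mrc1, Ptgs1, Asns, Angptl2, Bcar3 and Trib3, of which Aldh1l2, Pck2, Asns and Trib3 are known targets of ATF4, the factor of amino acid shortage. Aldh1l2, a mitochondrial folate enzyme, was at 8.24, 8.40, 8.39 and 8.26 in the shGFP control libraries and 8.93, 8.83, 8.91 and 8.96 in the shKDM1A control libraries. With IL4 it was at 9.27, 9.26, 9.18 and 9.16 with shGFP and 8.57, 8.80, 8.68 and 8.68 with shKDM1A. The shRNA groups were apart in both states, but in opposite order. The knockdown raised it without IL4 (0.59) and lowered it with IL4 (-0.53), and the difference of the effects was -1.12 (SE 0.068, adjusted p = 8.7e-08). Pck2, mitochondrial PEP carboxykinase, turned from 0.60 to -0.39 (difference -1.0, adjusted p = 4e-09). Asns, which makes asparagine, turned from 0.39 to -0.22, and the pseudokinase Trib3 from 0.30 to -0.27. In all 4 genes the sign changed between states. Over the 26 tested genes of the ATF4 and unfolded protein list 10 differed between states, against 6.13% of all tested genes, and the effect was more positive with IL4 for 2 of them. Angptl2 and the adaptor Bcar3 were higher in both states but less so with IL4, from 1.24 to 0.65 and from 0.99 to 0.41.

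On the other side, Pdcd1, which encodes the checkpoint receptor PD-1, was at 6.29, 6.09, 6.05 and 6.12 with shGFP and IL4 and at 7.31, 7.29, 7.24 and 7.26 with shKDM1A and IL4. The groups were far apart, and the knockdown effect rose from 0.44 without to 1.14 with IL4 (difference 0.70, SE 0.063, adjusted p = 8e-06). The lymphatic growth factor Vegfc went from 0.88 to 1.43 and Scd1 from 0.33 to 0.86. Id3, an inhibitor of basic helix-loop-helix factors, was lowered in both states but less with IL4 (-1.0 and -0.31, difference 0.69, adjusted p = 2.2e-05). Cd14 was slightly lower without IL4 (-0.08) and higher with it (0.40), and Scd2 was not called without IL4 (0.01) and rose with it (0.43). Tmem38b turned from -0.27 to 0.13, and Lyz2 went from 0.26 to 0.68.

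**Figure D5:**
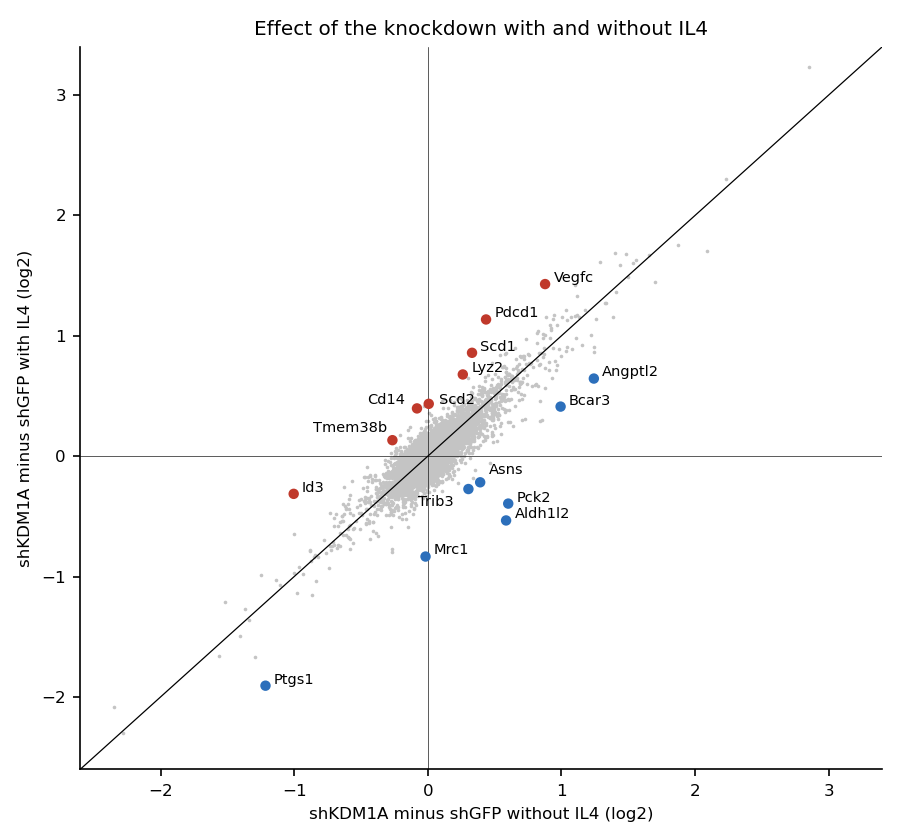
Log2 difference between shKDM1A and shGFP without IL4 (horizontal) and with IL4 (vertical) for the 12905 tested genes (grey); the diagonal marks equal effects. The 8 genes with the largest positive and the 8 with the largest negative difference between the effects are coloured red and blue; Aldh1l2, Pck2, Asns and Trib3 lie right of the vertical axis and below the horizontal one.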

How the data were processed

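RNA-seq was made from RAW264.7 cells with shGFP or shKDM1A, with or without IL4, in 4 libraries each. The study's methods name HISAT2 and Bowtie2 for alignment to mm9, without saying which served the RNA-seq, and HOMER for the RNA-seq analysis. Per the file headers, HOMER counted over exons on both strands, with 1 entry per gene. The authors deposited log2 values per gene and library, with no raw counts, so no count model was run. The transformation behind the log2 values is not given in the sources used here. The deposited columns with the authors' own DESeq2 comparisons were not used.

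Genes with a log2 value of at least 1 in at least 4 of 16 libraries were kept (12905 of 25094). Group means were fitted with limma 3.58.1 in R 4.3.3. The shKDM1A minus shGFP contrast was taken with and without IL4, along with the difference of both, with Benjamini-Hochberg adjustment over all tested genes and a threshold of 0.05. A fold is 2 to the power of the log2 difference. The fit was tested on simulated data. Figures and promoter searches used Python 3.11.15, pandas 2.3.3 and matplotlib 3.10.9; promoters came from RefSeq, build mm9 (NCBIM37).

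Groups, members and gene lists were chosen with earlier results of these data known. Genes were named as follows: Kdm1a, Ptgs1, Mrc1 and Flt1, the 12 with the largest changes in each direction, up to 4 called members per list plus members that define a list, the 8 with the largest difference between the IL4 states in each direction, and the 10 called genes with changes over 0.5 most abundant per kilobase. Some genes that this rule names are not reported here. Other settings were 2 filters, 2 scalings, a trended prior variance, a replicate block, the 8 IL4 libraries alone and leaving out single libraries. After seeing the data, a fit without shKDM1A IL4 libraries 1 and 3 and a fit with the length trend removed were added.

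Libraries with the same number in the shGFP IL4 and shKDM1A IL4 groups did not deviate together (correlations between 0.06 and -0.03), so the numbers were not used as pairs. Within each group, no 2 libraries were identical over the tested genes. With deposited log2 values only, the counting error of single genes cannot be computed.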

Additional observations from a re-analysis of the deposited data

Results flagged for a closer look

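Single libraries stood apart from the other 3 of their group, by Dixon's 95% criterion for 4 values, in 9 of 278 groups checked (3.24%); chance gives about 1 in 20. Among the shGFP IL4 libraries these were library 4 for Clec4a3 (7.72), library 2 for Sdf2l1 (11.44), library 1 for Setd1b (10.04) and library 3 for Trib3 (6.60). Among the shKDM1A IL4 libraries they were library 4 for Ptgs1 (7.72), library 3 for Sorl1 (6.47), library 2 for Ms4a6b (8.05), library 1 for Tnfaip2 (10.15) and library 3 for Cox7a2 (11.61). No call among these genes was lost when a single library was left out.

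The knockdown effect differed between IL4-treated and untreated cells, by limma's test of the difference, for 791 genes, and the 8 with the largest difference in each direction are given here. With IL4 it was more positive by 0.70 for Pdcd1, 0.69 for Id3, 0.55 for Vegfc, 0.53 for Scd1, 0.48 for Cd14, 0.43 for Scd2, 0.42 for Lyz2 and 0.40 for Tmem38b. It was more negative with IL4 for the other 8, with differences of -1.12 for Aldh1l2, -1.0 for Pck2, -0.82 for Mrc1, -0.69 for Ptgs1, -0.61 for Asns, -0.60 for Angptl2, -0.58 for Bcar3 and -0.58 for Trib3.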

How the results depend on the processing

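The count of 5255 genes stayed within 1.5 times under every setting, between 4075 without shKDM1A IL4 libraries 1 and 3 and 5429 with a trended prior variance. Leaving out 1 library gave 4697 to 5214. The share called higher ran from 45.0% under quantile normalization to 56.7% under median centring. Between 3705 and 5084 of the 5255 calls kept their direction and significance. The count for the difference between the IL4 states was 791, ran from 530 to 1104 when single libraries were left out, and was 348 without shKDM1A IL4 libraries 1 and 3. The Kdm1a difference ran from -0.77 to -0.80.

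The same number did not mark paired libraries; with the replicate block 5212 genes were called, 732 for the difference. Over 139 named genes, 1 value changed sign: Tbl1xr1 was 0.00 with the length trend removed, and its cause was not tested. Calls of Kmt2c and Tbl1xr1 were lost under several settings, and those of Traf1, Ncor1 and Phf8 without libraries 1 and 3. The missing counts limit what can be said of weakly expressed genes.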

Other observations

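Genes that lie upstream of the interferon response were looked at after the list's values had been seen. Ifnb1, interferon beta, was below the filter, with values between -0.20 and -0.18 in all libraries, and Ifna1, Ifna2 and Ifna4 were listed at 0 in all 16. Of the receptor chains, Ifnar1 differed by 0.08 and Ifnar2 by -0.14, both called. The endosomal sensors Tlr3 (0.28), Tlr7 (-0.33) and Tlr9 (-0.20) were called, while Mavs (0.07) and Tmem173, which encodes STING (-0.03), were not. Adar, which edits double-stranded RNA and is itself induced by interferon, rose by 0.56. Sirpa, the receptor of the CD47 signal, differed by -0.39.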
